A study of Mus musculus with 8 samples.

Results

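The imprinted cluster of miR-296 and miR-298 was described from 3 assays of a real-time PCR table: mmu-miR-296-5p and mmu-miR-296-3p, the 2 arms of 1 hairpin, and mmu-miR-298, the neighbouring hairpin. They were chosen by assay name, as every assay whose name began with mmu-miR-296 or equalled mmu-miR-298, and are 3 of the 517 mouse miRNA assays measured. The cluster was picked with results of this comparison already known, in which miR-296-5p showed the largest rise, so its values are given as a description and without a test of their own.

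The study asked which miRNAs differ between early atherosclerotic plaque and arterial wall of normal appearance. All animals were female Apoe-/- mice, which lack apolipoprotein E, labelled as 6-8 weeks old and fed a high-fat diet for 3 months. Plaque (4 samples, called plaque 1 to 4) was labelled aortic root and the comparison tissue (4 samples, undiseased artery 1 to 4) was labelled artery. Both were cut from sections by laser capture microdissection, with tissue of at least 40 sections collected per mouse. The tissue site and the presence of plaque cannot be told apart, and no label ties a plaque sample to the mouse of an undiseased one. There was no group on another diet or genotype.

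miR-296 and miR-298 are made in mouse from an imprinted region, the Gnas locus on chromosome 2, where transcription from the paternal chromosome yields the antisense RNA Nespas and these hairpins. A miRNA guides Argonaute proteins to messenger RNAs that pair with its seed, bases 2 to 8, and lowers their output. miR-296 is known from human brain endothelium, where growth factors raise it and it acts on the sorting protein HGS, and from mouse embryonic stem cells, where it acts on the transcript of the pluripotency factor Nanog. miR-298 is known as a regulator of Bace1, the beta-secretase, in mouse cells.

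The RefSeq sequences are shown because they set the one arm that was detected beside the members whose wells stayed blank. In the GRCm38.p6 build the Mir296 hairpin lies on the minus strand at chr2:174267047-174267125 and the Mir298 hairpin at chr2:174267504-174267585, with 378 bases between them. No RefSeq gene of that build spans both hairpins, and the next annotated genes on 1 side are Gnasas1, the RefSeq name of Nespas, and Gnas. The Ct table itself names no build. Capitals in the first line mark the 2 mature arms within the hairpin, and in the 4 others the seed. The old assay name mmu-miR-298 does not name an arm, so both are shown.
Mir296 hairpin: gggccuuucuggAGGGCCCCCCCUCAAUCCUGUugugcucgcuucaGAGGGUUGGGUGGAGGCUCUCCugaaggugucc
miR-296-5p: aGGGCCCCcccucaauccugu
miR-296-3p: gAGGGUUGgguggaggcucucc
miR-298-5p: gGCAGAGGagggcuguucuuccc
miR-298-3p: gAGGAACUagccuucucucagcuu

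The 4 mature sequences carry 4 different seeds, and none of these seeds occurs in another of the 1679 mature mouse miRNAs of the RefSeq table. miR-296-5p holds a run of 7 C bases, a length reached by 2 of the 1679 mature sequences, itself included. Its share of G and C is 66.7%, against a median of 52.2% over the table.

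Of the 3 assays, miR-296-5p alone was detected. A Ct is the cycle at which fluorescence crosses a set line, so a lower Ct means more RNA, and a Ct under 35 counted as detected. In undiseased artery 1 to 4 the raw Ct of miR-296-5p was 28.7, 30.6, 29.5 and 34.02. In the plaque samples, in the same order, it was 27.9, 28.4, 31.0 and 30.4. It thus amplified in all 8 samples, as did 124 of 517 assays (24.0%), and came closest to the cutoff in undiseased artery 4. miR-296-3p and miR-298 read 40, the value for no amplification, in all 8 wells each. Such a blank assay was common on these panels, with 175 of 517 at 40 throughout (33.8%). For these 2 members no level and no fold can be given, and whether the assays work was not tested here.

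The one-sided pattern of the miR-296 hairpin was shared with other hairpins. Of 139 hairpin names with 2 assays, 62 had at least 1 arm detected in all 8 samples. In 15 of these 62 the other arm was detected in 0 samples, at 40 in every well, and in 7 both arms were detected in all 8. miR-296 is 1 of the 15, beside for example miR-150, the miRNA of mature lymphocytes, and miR-106b. No level is compared between arms, since assay efficiencies were not measured.

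Plaque 1 to 3 amplified later than every undiseased sample on average over the reference miRNAs, and miR-296-5p did not follow that shift. Averaged over these reference miRNAs, the 124 seen in every sample, the Ct reached 25.0, 25.0, 24.7 and 26.6 in undiseased artery 1 to 4. It was 27.1, 28.8, 29.9 and 26.3 in the plaque samples. Plaque 4 lay below undiseased artery 4, so the groups overlapped. They averaged 25.3 ± 0.885 and 28.0 ± 1.65 (SD, n = 4 each). Raw Ct of miR-296-5p averaged 30.7 ± 2.35 in undiseased artery and 29.4 ± 1.54 in plaque (SD, n = 4 each), and its 2 groups overlapped widely. Of the 172 miRNAs detected in at least 3 samples of each group, 15 (8.72%) had an earlier mean raw Ct in plaque, and miR-296-5p was the second of these, after miR-34b-3p, a miRNA of the p53-induced miR-34 family. Its raw difference was 1.28 cycles towards more RNA in plaque, while the median over the 172 miRNAs was -2.59.

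Relative to the mean of these 124 miRNAs, miR-296-5p was higher in plaque. The normalised level, the reference mean minus the Ct on a log2 scale, was -3.68, -5.58, -4.78 and -7.38 in undiseased artery 1 to 4. In plaque 1 to 4 it was -0.73, 0.48, -1.11 and -4.13. The 4 plaque values lay above those of undiseased artery except that plaque 4 fell below undiseased artery 1, so the groups overlapped by 0.45. Undiseased artery averaged -5.35 ± 1.56 and plaque -1.37 ± 1.96 (SD, n = 4 each). The difference was 3.98 (limma SE 0.99), which is 15.8-fold if each cycle doubles the product. In tissue of mixed cells, a change in cell numbers and a change in RNA per cell cannot be told apart.

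**Figure D1:**
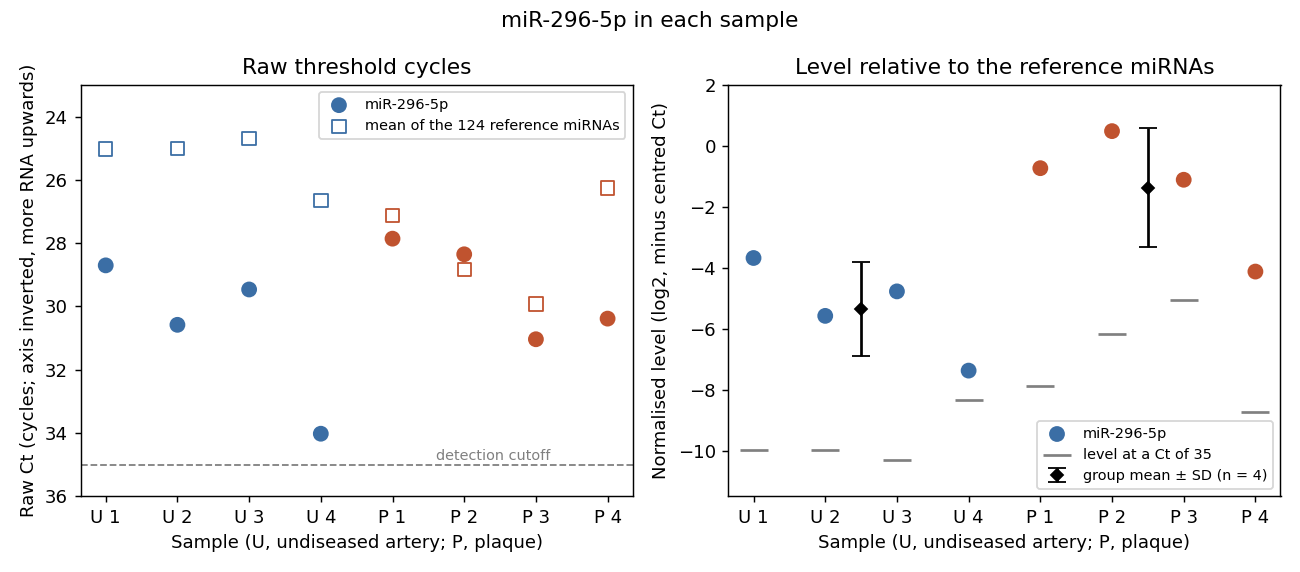
Left, raw Ct of miR-296-5p (filled circles) and the mean raw Ct of the 124 reference miRNAs (open squares) in each sample, with the axis inverted so that more RNA lies higher. Right, the log2 level of miR-296-5p relative to that mean (circles), the level that a Ct of 35 would have in each sample (grey dashes) and group means ± SD (diamonds, n = 4 each); blue is undiseased artery and red is plaque. Plaque 1 to 3 lie between -1.11 and 0.48, above all undiseased samples, and plaque 4 at -4.13 lies among them.

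The level that could be seen differed between samples. A Ct of 35 corresponds to a level of -9.98, -10.00, -10.31 and -8.35 in undiseased artery 1 to 4. For the plaque samples the limit was -7.87, -6.16, -5.07 and -8.74. miR-296-5p stood 0.98 above that limit in undiseased artery 4, 4.42 to 6.30 above it in the 3 other undiseased samples and 3.96 to 7.14 above it in plaque. The levels of undiseased artery 2 and 4 would have gone undetected in plaque 3, as would that of undiseased artery 4 in plaque 2.

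This difference was the largest rise among the 172 miRNAs, and also 1 of the less precise. The next, miR-34b-3p, stood at 3.86. miR-296-5p ranked first in 7 of the 21 alternative settings described below and no lower than eighth in the others. The median log2 difference was -0.11 over all 172 and -0.73 over the 109 tested miRNAs of panel 1, the one of the 2 assay panels that held the cluster. In the limma fit over all 172 miRNAs (Benjamini-Hochberg adjusted p under 0.05), 1 of 1 tested member was called higher, as were 15.7% of all tested miRNAs and 6.42% of those on panel 1, and 18.6% were called lower. The call was made in the contrast by which the cluster was picked and is given as a count. Higher and lower calls numbered 27 and 32, against 11 and 37 with quantile normalization, 0 and 81 on raw Ct, and 0 and 2 with the control RNAs. Groups without overlap and higher in plaque made up 14.0% of the 172, and miR-296-5p was not among them. The SD within groups was 1.77 for miR-296-5p and 0.82 for the median miRNA, and 8 of the 172 varied more.

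**Figure D2:**
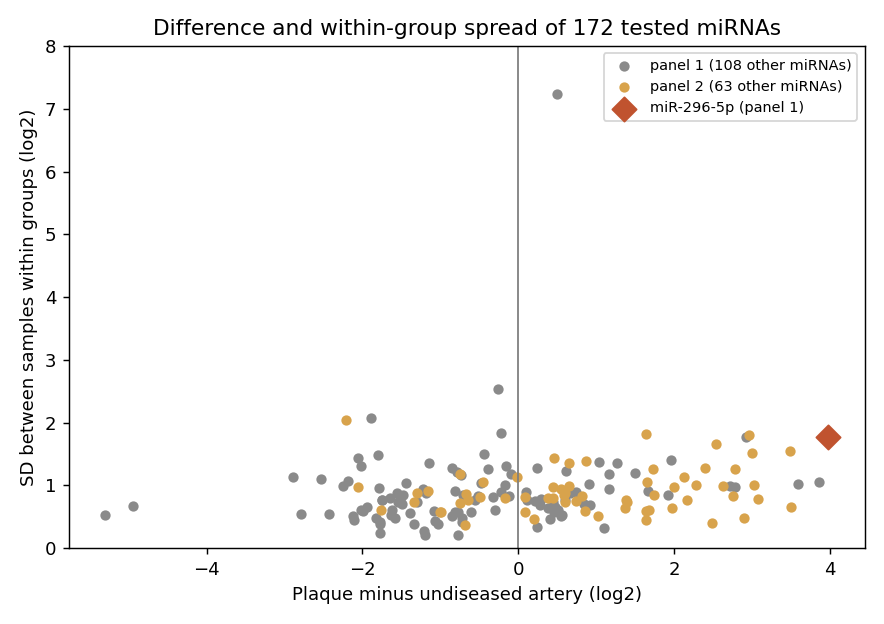
Each point is 1 of the 172 tested miRNAs, with the log2 difference (plaque minus undiseased artery) on the horizontal axis and the SD between samples within groups (log2) on the vertical axis; colours give the assay panel. miR-296-5p (red diamond) lies farthest to the right at 3.98, with an SD of 1.77 against a median of 0.82; the topmost point is the myeloid miR-223.

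Single samples and the reference moved the size of the rise, and its sign was kept in all 21 alternatives tried. Without plaque 4 the difference was 4.90 (SE 0.82, 29.9-fold), and the remaining plaque samples lay at least 2.57 above undiseased artery. Without undiseased artery 4 it was 3.31 (9.90-fold), and without plaque 2 it was 3.36 (10.3-fold). miR-296-5p was called whichever of the 8 samples was omitted. These fits reuse the values by which the cluster was picked, so the calls are no test of it. With the 6 control RNAs as reference the difference was 3.50 (SE 1.10) and with U6 alone 3.53 (SE 1.33), and on raw Ct it was 1.28 (SE 1.19). None of these 3 called miR-296-5p, nor did the fit with mean raw Ct as a covariate (3.26, SE 1.57). In the fits with control RNAs or U6, every named miRNA had the same SE, so it is not that of miR-296-5p alone. The SD within groups of miR-296-5p was 2.45 with control RNAs and 2.94 with U6. U6 itself varied in plaque, from a Ct of 14.1 in plaque 4 to 20.0 in plaque 1. With each panel set to its own mean the difference of miR-296-5p was 4.53, and the groups then lay 0.0018 apart. Counting only a Ct under 32 as detected removed undiseased artery 4 and gave 3.09 (8.50-fold). Quantile normalization gave 3.06 (8.35-fold), with a median of -1.02 over all tested miRNAs.

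**Figure D3:**
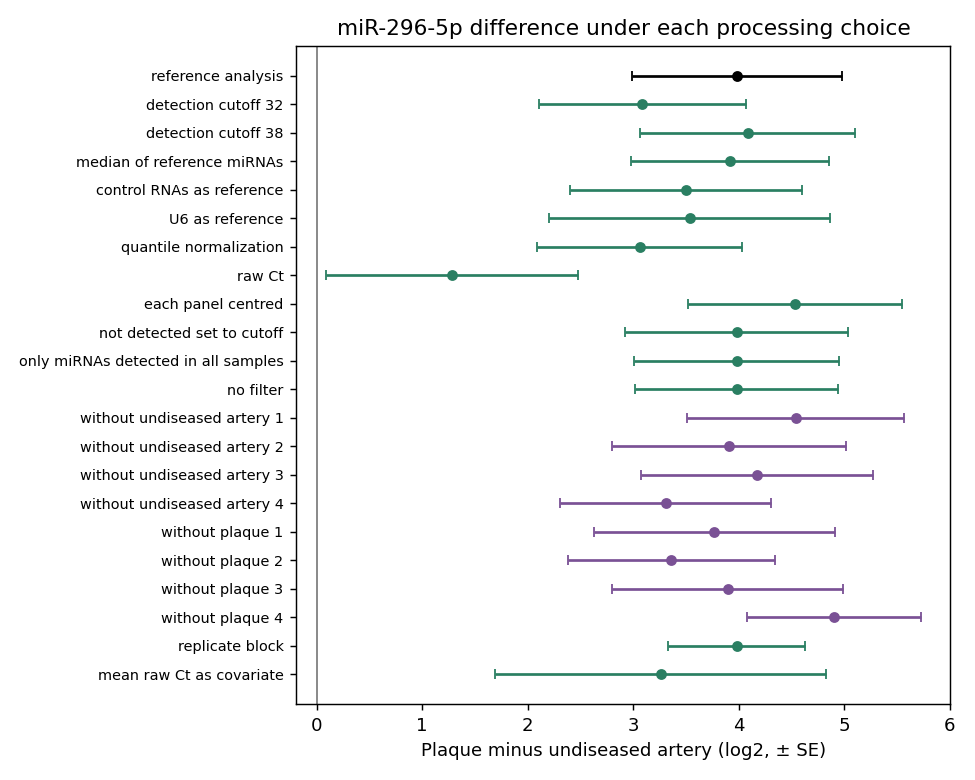
Log2 difference of miR-296-5p (plaque minus undiseased artery, horizontal axis) with its limma SE for the reference analysis (black), other processing choices (green) and each sample left out in turn (purple). All 22 values lie above 0, from 1.28 on raw Ct to 4.90 without plaque 4.

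In each group the sample lowest in miR-296-5p was the one highest in endothelial miR-126 and in the summed leukocyte markers. Each sum adds amounts and so mostly follows its member of highest level, miR-126-3p or miR-150. In undiseased artery miR-150 averaged 1.79, against -2.66 for miR-142-3p and -4.27 for miR-155. In plaque these means were 0.94, -2.88 and -1.48. The summed level of miR-126-3p and miR-126-5p, the 2 arms of the endothelial miR-126 (2 of 2 listed markers, both detected in all samples), was 2.58, 2.11, 2.54 and 3.19 across undiseased artery 1 to 4. Across the plaque samples it was 1.88, -1.05, 1.36 and 3.43. These highest samples were undiseased artery 4 and plaque 4, and plaque 2, lowest in miR-126, was the plaque sample highest in miR-296-5p. The 3 other undiseased samples did not follow that order for miR-126. This relation was noticed after the values were seen, rests on 4 samples a group and was not tested. Neither miR-126 arm passed the adjusted threshold between the groups.

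Other markers moved with the comparison too. The summed level of the smooth muscle miRNAs miR-143 and miR-145 (2 of 2) was 9.40 to 10.34 in undiseased artery and 4.02 to 5.44 in plaque. Both fell, with a log2 difference of -4.95 for miR-143 (limma adjusted p = 9.03e-05) and -5.30 for miR-145 (limma adjusted p = 3.51e-05). Leukocyte markers detected in all samples (3 of 5 listed, namely miR-142-3p, miR-150 and miR-155) summed to 1.55 to 2.54 in undiseased artery and -0.58 to 3.33 in plaque, with the highest undiseased value in undiseased artery 4, the lowest plaque value in plaque 2 and the highest in plaque 4. Of these, miR-155, a miRNA of activated immune cells, rose by 2.79 (limma adjusted p = 0.0117). Neither miR-142-3p (-0.22, limma adjusted p = 0.878) nor miR-150 (-0.85, limma adjusted p = 0.425) passed, and miR-223 did not either (0.50, limma adjusted p = 0.903). The difference of miR-223 had an SE of 3.80, with an SD of 8.06 in plaque and 6.32 in undiseased artery. It is too imprecise to show whether miR-223 changed. The other leukocyte markers, miR-142-5p and miR-223, were detected in 1 and 3 plaque samples and in 4 undiseased samples each. The skeletal muscle miRNA miR-206 fell by 2.05 (limma adjusted p = 0.0331). Of the heart muscle markers, miR-208 was detected in 2 plaque and 0 undiseased samples, and miR-208b and miR-499 in none. The epithelial and endocrine miRNAs miR-375 and miR-200c and the neuronal miR-124 and miR-9 were each detected in 3 to 5 samples, miR-122 of liver in 1, the red cell miR-451 in 7 and miR-486 in none. The part of these cell types in the miR-296-5p difference was not tested.

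The profiles closest to miR-296-5p across the 8 samples belonged to miR-455, miR-673-5p, miR-21, miR-141* and miR-680. Likeness was the root mean square difference between 2 profiles, each centred on its own mean, over the 123 other miRNAs detected in all samples. It was 1.32 cycles for miR-455, a miRNA encoded within a collagen gene, 1.38 for miR-673-5p, 1.50 for miR-21, a miRNA raised in many inflamed tissues, 1.59 for miR-141* and 1.66 for miR-680. The median over all 123 was 2.73. All 5 were higher on average in plaque and had a lower level in plaque 4 than in plaque 1, 2 and 3, with the exception of miR-680, whose level was lowest in plaque 2 at -1.15 and -1.13 in plaque 4. miR-455 shared with miR-296-5p a minimum in undiseased artery 4 (-2.72) and a maximum in plaque 2 (3.06). Ranking over both groups favours miRNAs that differ between them, and nothing is said here of shared control.

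**Figure D4:**
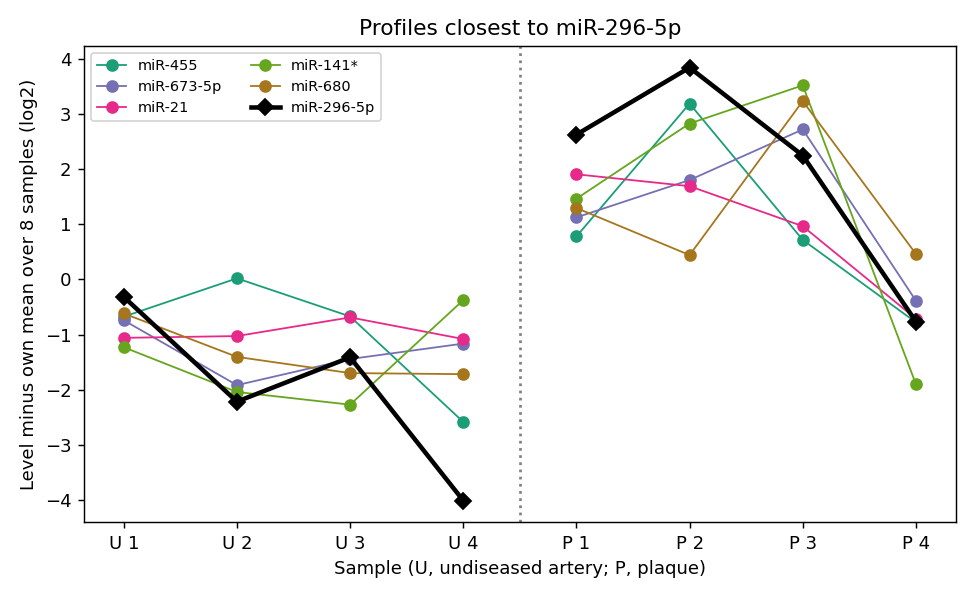
Level of miR-296-5p (black diamonds) and of the 5 closest miRNAs in each sample, each minus its own mean over the 8 samples (log2); lines only join values of 1 miRNA within a group. Plaque 1 to 3 lie above each miRNA's mean, and plaque 4 lies below it for all but miR-680.

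In the limma fit, 4 of these 5 rose, against 15.7% of all tested miRNAs, a count that their choice by likeness to miR-296-5p favours. They were miR-673-5p (2.63, SE 0.64, adjusted p = 0.0146), miR-680 (2.72, SE 0.64, adjusted p = 0.0138), miR-141* (2.96, SE 1.01, adjusted p = 0.0428) and, by 1.93 (SE 0.59, adjusted p = 0.0323), miR-21. The fifth, miR-455 (1.96, SE 0.82, adjusted p = 0.0866), did not pass, and was called without plaque 4 (adjusted p = 0.0354) and with the replicate number as a block (adjusted p = 0.0328). The calls of miR-141* and miR-21 were kept without plaque 4 and lost without any of the 7 other samples, and that of miR-673-5p was lost without undiseased artery 2. None of the 5 was called with the control RNAs or U6 as reference, on raw Ct or in the covariate fit, where miR-141* stood at -0.37. With each panel centred, the calls of miR-673-5p and miR-141*, both on panel 2, were lost. Quantile normalization lost those of miR-21, miR-680 and miR-141*. The call of miR-141* was lost too at cutoffs of 32 and 38 and with values not detected set to the cutoff.

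Few listed miRNAs of other imprinted loci could be tested, and their calls went both ways. Of 31 listed from the Mest, Igf2, H19, Dlk1-Dio3 and Sfmbt2 regions, 28 were assayed, 7 were detected in 0 samples and 7 were detected often enough to test. Of these 7, 1 rose, 1 fell and 5 did not pass, while 15.7% of all tested miRNAs rose and 18.6% fell. Their median log2 difference was 0.75 against -0.11 over all tested miRNAs. Panel 1, which held all of these 7 but miR-466d-3p, had a median of -0.73. miR-466d-3p of the Sfmbt2 region, a family of near-identical copies that 1 assay may not separate, rose (1.64, SE 0.49, adjusted p = 0.0315, limma). miR-127 of the Dlk1-Dio3 region fell (-1.49, SE 0.53, adjusted p = 0.0474, limma). Both calls were lost without undiseased artery 1, 2 or 3 and without plaque 3, that of miR-127 also without plaque 2. Both were also lost with each panel centred, with control RNAs, with U6, with mean raw Ct as a covariate and with the replicate number as a block. That of miR-466d-3p was further lost with quantile normalization and on raw Ct. That of miR-127 was further lost at a cutoff of 38 and with the median of the reference miRNAs. It was lost too with values not detected set to the cutoff and without the minimum of 3 samples per group. The H19 miRNAs miR-675-5p and miR-675-3p were detected in 0 samples, and miR-335-5p of Mest in 2 plaque and 4 undiseased samples. The list left out the other arms of some listed miRNAs. Among them, miR-467a* (1.98, adjusted p = 0.0174, limma) and miR-467b* (2.12, adjusted p = 0.0407, limma) rose. miR-297a* (1.99, adjusted p = 0.0545, limma) and miR-376b* (-0.74, adjusted p = 0.443, limma) did not pass. The counts of this list thus depend on which arms were listed. The risers miR-466d-3p, miR-467a* and miR-467b* were all assayed on panel 2. Calls higher made up 15.7% of all tested miRNAs and 6.42% of those on panel 1, so they were more common on panel 2. With each panel centred, the difference of miR-466d-3p was 0.56 (adjusted p = 0.259, limma). A rise particular to the Sfmbt2 region was not tested.

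miR-296 is counted among the miRNAs linked to blood vessel growth. Of 23 listed, 22 were assayed and 15 tested, of which 1 rose (miR-21), 2 fell and 12 did not pass. Over all tested miRNAs 15.7% rose and 18.6% fell, so these counts do not set the list apart. Its median log2 difference was -0.74, against -0.11 over all tested miRNAs and -0.73 over those of panel 1. The fallers were miR-218, which lies in the Slit genes (-2.89, SE 0.70, adjusted p = 0.0146, limma), and miR-130a (-1.63, SE 0.47, adjusted p = 0.0270, limma), known to promote vessel growth in human endothelial cells. The call of miR-130a was lost without undiseased artery 1, 2 or 3, with control RNAs, U6 or panel centring and in the covariate fit. Without undiseased artery 1, where the level of miR-218 stood apart, the difference of that miRNA was -2.11. The call of miR-218 was lost with control RNAs, with U6 and with mean raw Ct as a covariate.

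Few miRNAs that share a known target with the cluster could be followed. Of 4 listed for Nanog, Oct4 or Sox2, miR-470 was detected in 0 samples, miR-134 and miR-200c in too few to test, and miR-145 fell (-5.30, SE 0.48, adjusted p = 3.51e-05, limma). Of 7 listed for Bace1, 4 were tested, 0 rose, 1 fell and 3 did not pass, numbers too small to read against the 15.7% and 18.6% of all tested miRNAs. Their median was 0.17. miR-195 fell (-1.20, SE 0.40, adjusted p = 0.0407, limma), a call kept without plaque 4 and lost without any of the 7 other samples. That call was also lost at a cutoff of 38, with control RNAs, with U6 and with each panel centred. It was lost too without the minimum of 3 samples per group, with the replicate number as a block and in the covariate fit. miR-328, which regulates Bace1 in mouse with miR-298, stood at 0.47 (adjusted p = 0.486, limma). Target transcripts were not measured.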

How the data were processed

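The authors deposited raw threshold cycles (Ct), a score per well with no normalization, for 8 samples (per the labels, FAM probes on total RNA isolated with the RecoverAll kit), and 40 marks no amplification. The sources used here do not give the instrument, preamplification or threshold setting. The title of plaque 4 says replicate 4 and its description replicate 3; the title was used. The table's 530 rows hold 517 miRNA assays, 335 on panel 1 and 182 on panel 2, told apart by recurring control RNAs. Levels were centred on the mean of the 124 miRNAs with a Ct under 35 in all samples, and values not detected were left missing. limma 3.58.1 in R 4.3.3 (lmFit, eBayes, two-sided) was fitted to 172 miRNAs, each detected by 3 or 4 plaque and by 3 or 4 undiseased samples. Group was the only term, and p-values were adjusted by Benjamini-Hochberg. The labels call the samples biological replicates. Depth is described by the number of miRNAs detected, 148 to 288 per sample. Alternatives were cutoffs of 32 and 38, other references or none, other treatments of values not detected, omission of each sample, the replicate number as a block and mean raw Ct as a covariate. The steps were tested on simulated data. The members and lists were chosen with earlier results of these data known. The named miRNAs were the members, the 5 closest profiles and, per list, those called with the largest changes. Added after values were seen were miR-34b-3p, miR-150, miR-106b, miR-335-5p, miR-675, miR-328, miR-467a*, miR-467b*, miR-297a* and miR-376b*. The labels do not state whether equal replicate numbers mean the same mouse. Deviations of same-numbered samples from their group means, over the 124 miRNAs, correlated at 0.13, 0.19, -0.24 and -0.16 for numbers 1 to 4. With 4 samples of each of 2 tissues, these values cannot settle whether the samples were paired.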

Additional observations from a re-analysis of the deposited data

Results flagged for a closer look

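Among 42 groups of 4 values examined with Dixon's test, 3 held a value that stood apart from the other 3, and chance gives such a value in about 1 of 20 groups. The mean raw Ct of the 124 reference miRNAs was 26.6 in undiseased artery 4, against 24.7 to 25.0 in the others, and the same sample had the lowest level of miR-296-5p. The level of miR-218 was -0.24 in undiseased artery 1, against -3.50 to -3.29 in the others. The level of miR-21 was -0.54 in undiseased artery 3, against -0.94 to -0.88 in the others. No value of miR-296-5p itself stood apart in this way.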

How the results depend on the processing

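The rise of miR-296-5p kept its sign under all 21 alternatives, and moved by more than the spread between samples on raw Ct alone (1.28). With 1 sample left out it ran from 3.31 to 4.90, and under the 13 other alternatives from 1.28 to 4.53. The number of miRNAs called, 59 in the reference analysis, was 2 with control RNAs, 2 with U6, 35 with each panel centred and 13 with mean raw Ct as a covariate, and 19 to 79 with 1 sample left out, the lowest without undiseased artery 2. With the replicate number as a block, which the labels do not support as a pairing, 49 were called. The difference of miR-296-5p was then 3.98 (SE 0.65), called again in the contrast by which the cluster was picked. On raw Ct, miR-455 (-0.74), miR-673-5p (-0.0625), miR-21 (-0.77) and miR-466d-3p (-1.06) turned lower in plaque, and miR-141* turned with mean raw Ct as a covariate (-0.37). The causes were not tested. miR-296-3p and miR-298 gave no value under any alternative, being detected in 0 samples also at a cutoff of 32 or 38. In plaque 2 and 3, where the reference miRNAs amplified latest, levels under -6.16 and -5.07 could not be seen. Fold sizes assume full amplification efficiency.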
